A study of Homo sapiens with 15 samples.

Results

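Matrix metalloproteinases (MMPs) are zinc-dependent enzymes that cut the proteins of the extracellular matrix, and the tissue inhibitors of metalloproteinases (TIMPs) bind their active sites and block them. The collagenase MMP1 opens fibrillar collagen, the stromelysins MMP3 and MMP10 cut a wide range of matrix proteins and activate other MMP precursors, and the gelatinases MMP2 and MMP9 degrade denatured collagen. MMP14 and MMP16 are anchored in the plasma membrane, where MMP14 activates the MMP2 precursor with the help of TIMP2. Bone is rich in fibrillar collagen, and MMPs are known for their part in bone remodelling and in the invasion of bone tumours.

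The 10 genes described here are MMP1, MMP2, MMP3, MMP9, MMP10, MMP14, MMP16, TIMP1, TIMP2 and TIMP3, chosen by symbol among the 62700 genes of the count tables, each by its Ensembl identifier. RNA was sequenced from 15 libraries of 143B, an established human osteosarcoma line of highly metastatic behaviour, with 3 libraries for each of 5 conditions, and the study asked how the kinase PDK1 acts in osteosarcoma stem cells (OSCs). In the first experiment, OSCs were 143B cells grown as spheres in tumorsphere medium (DMEM/F12 with B27, EGF and basic FGF), and non-OSCs were the same line grown adherent in its maintenance medium, DMEM with fetal bovine serum. Both carry the genotype label WT, and the culture differs between them in attachment, medium, growth factors and serum, so these and the cell state cannot be told apart. In the second experiment, 143B OSCs carried a lentiviral control vector (shCtrl, labelled WT) or 1 of 2 hairpins against PDK1 (shPDK1#1 and shPDK1#2). All 15 libraries come from 1 cell line, and the labels number the replicates without saying whether they are separate cultures, so p-values measure the spread between these libraries only.

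The libraries held 7992499 to 11256536 counts each. PDK1 itself fell from 45.2 ± 1.28 CPM (SD, n = 3) in shCtrl to 28.1 ± 0.844 with shPDK1#1 and 19.8 ± 1.65 with shPDK1#2. Of the osteoblastic markers, COL1A1 averaged 417 to 1303 CPM and SPARC 550 to 1543 CPM over the 5 conditions, RUNX2 14.7 to 37.7 CPM and ALPL 1.49 to 2.66 CPM, whereas IBSP was at 0 counts in all 15 libraries. In OSCs COL1A1 (log2 fold change 1.34) and SPARC (0.78) were called higher and RUNX2 lower (-1.11), and ALPL (-0.86) did not pass the threshold. Levels below are CPM, read counts scaled to library size, after TMM normalization within each experiment, and every group mean ± SD is over 3 libraries. The experiments were deposited as separate tables, so levels are compared only within one of them. A gene was called changed at a Benjamini-Hochberg adjusted p under 0.05 in edgeR's quasi-likelihood test, adjusted over all genes tested. In bulk RNA, a change in the number of cells that express a gene and a change in the RNA per cell cannot be told apart.

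MMP10 lies on chromosome 11 (GRCh38, chr11:102770502-102780628, minus strand, 10 exons), in a cluster of MMP genes that includes MMP1 at 8.77 kb and MMP3 at 55.2 kb. The 250 bases before the transcription start were read from RefSeq promoters (GRCh38.p14), which held 4 of the 10 members (MMP10, MMP14, TIMP1 and TIMP3). The sequences of MMP10 (chr11:102780629-102780878, minus strand) and TIMP3 (chr22:32801455-32801704, plus strand) are shown because these genes moved furthest up and down in OSCs. Both are written 5′ to 3′ in the direction of the gene. Capitals mark matches to TGANTCA, a loose form of the AP-1 site TGAGTCA (searched on both strands, on which it reads alike), and to TATAAA on the gene's strand.
MMP10: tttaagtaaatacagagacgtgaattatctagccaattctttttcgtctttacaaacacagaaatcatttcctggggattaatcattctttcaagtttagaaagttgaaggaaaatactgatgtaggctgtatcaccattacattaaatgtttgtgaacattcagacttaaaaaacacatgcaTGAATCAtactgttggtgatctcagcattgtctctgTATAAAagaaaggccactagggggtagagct
TIMP3: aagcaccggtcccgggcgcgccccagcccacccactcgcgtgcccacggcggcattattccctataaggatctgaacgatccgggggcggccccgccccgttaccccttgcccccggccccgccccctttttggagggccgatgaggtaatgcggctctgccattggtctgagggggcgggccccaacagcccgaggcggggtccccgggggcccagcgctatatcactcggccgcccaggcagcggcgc
The MMP10 sequence holds TGAATCA at positions -67 to -61 and TATAAA at -31 to -26, counted back from the start. The TIMP3 sequence holds no match to either, and neither do those of MMP14 and TIMP1, which were both called higher in OSCs. A match to TGANTCA stands in 6.57% of the 35116 promoter windows of this length, and one to TATAAA on either strand in 10.7%. The stricter TGAGTCA, on either strand, stands in 4.2% of them and in none of the 4 members, MMP10 included. The bases are 34.4% G or C in MMP10 and 72.4% in TIMP3.

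OSCs differed from non-OSCs in every member that could be tested. Of the 9 members tested, 8 were higher in OSCs and TIMP3 was lower, in a comparison in which 63.9% of the 14287 genes tested were called, 32.4% higher and 31.5% lower. In all 9, OSC and non-OSC libraries lay apart without overlap, beside 66.9% of all genes. MMP3 did not pass the filter on low counts, and MMP10 passed it through the OSC libraries only. The median log2 fold change of the 9 members was 1.06, beside -0.01 for all genes tested. The members were chosen with earlier results of these data known. In each comparison, their counts and medians beside those of all genes are therefore a description, and in OSCs they include MMP10. With each hairpin, 5 of the 9 were called. The shPDK1#1 libraries had more MMP1, MMP10 and TIMP1 and less MMP9 and TIMP3 than shCtrl, against a background of 3.06% of 14574 genes called (1.62% higher, 1.44% lower). The shPDK1#2 libraries had less MMP9, MMP10, MMP14, TIMP2 and TIMP3, and no member rose, against 26.2% called (12% higher, 14.2% lower). The 5 called members are also those whose libraries did not overlap shCtrl, for each hairpin, beside 19.3% of all genes with shPDK1#1 and 39.5% with shPDK1#2. Both comparisons use the same shCtrl libraries.

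**Figure D1:**
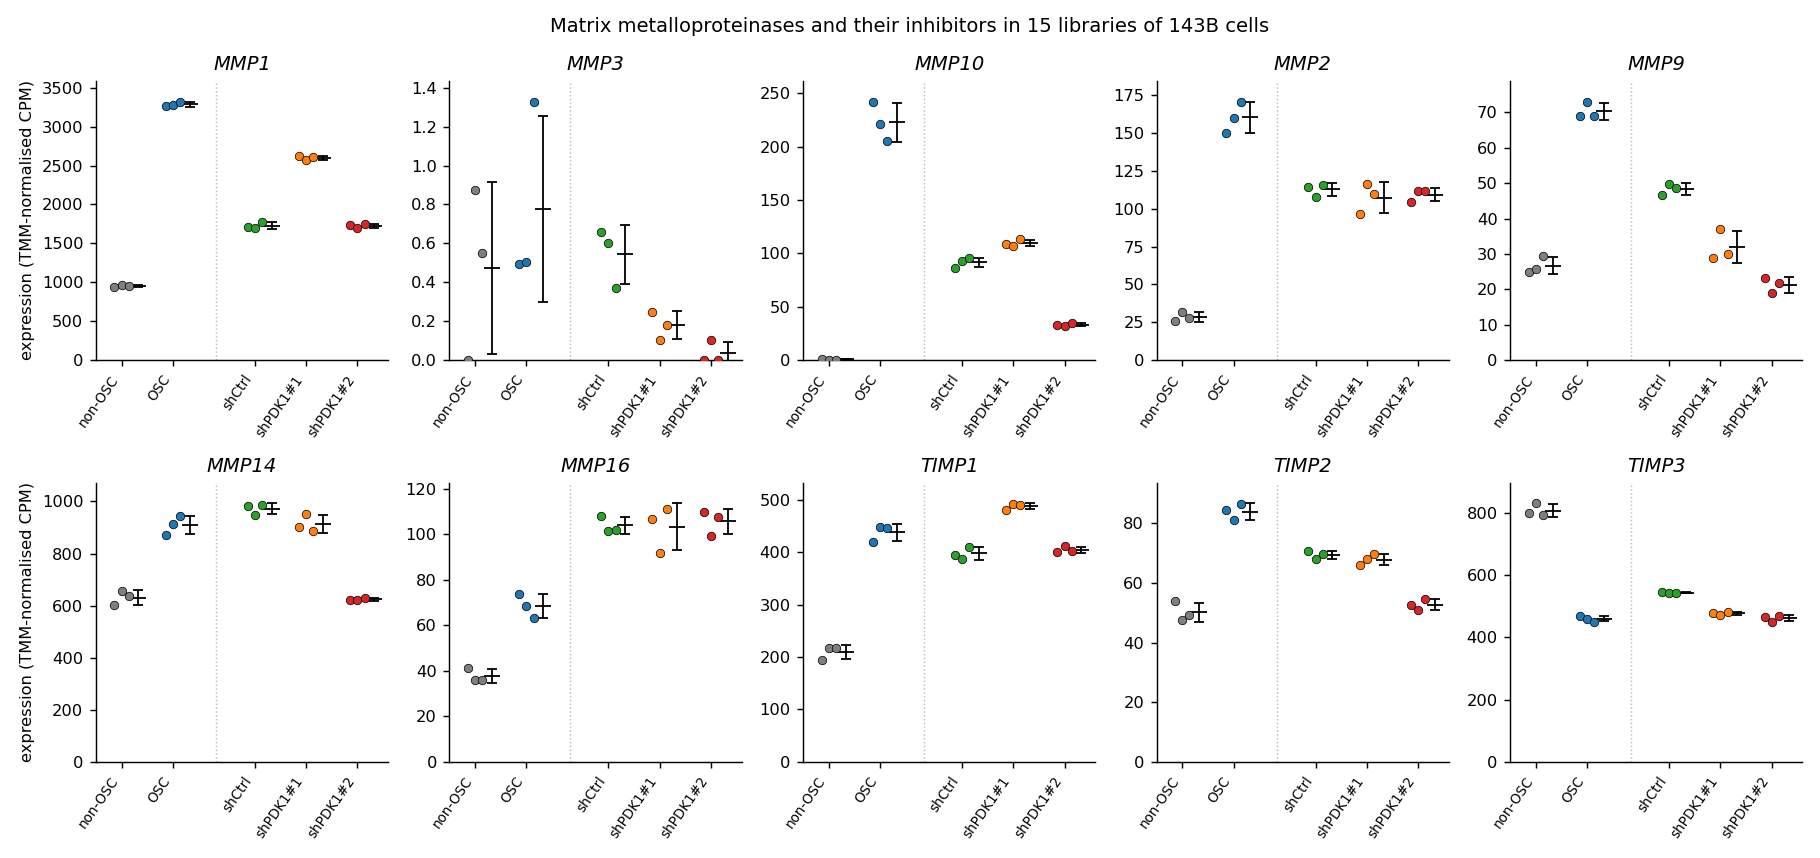
Expression of the 10 members in each library (points, TMM-normalised CPM on a linear axis from 0) with mean and SD beside them (bars, n = 3), for the 5 conditions; the dotted line parts the 2 experiments, whose levels are not compared. MMP10 sits at 0.328 to 1.16 CPM in non-OSCs and at 205 to 242 CPM in OSCs, and at 31.8 to 34.6 CPM with shPDK1#2 below all shCtrl libraries.

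The stromelysin MMP10 (ENSG00000166670) was the member with the widest range. The 3 non-OSC libraries held 12, 3 and 3 counts of it, or 1.16, 0.328 and 0.331 CPM. The 3 OSC libraries held 1966, 2183 and 1701 counts, or 242, 221 and 205 CPM. MMP10 was thus close to the detection floor of 3 counts in adherent cells and abundant in all spheres, with no overlap. It passed the filter on low counts through the OSC libraries only, so its p-value and rank in OSCs are a description. Its fitted log2 fold change of 8.44 (SE 0.155, edgeR adjusted p = 1.06e-20) was the largest rise among the 14287 genes tested. The ratio of summed counts, scaled by library size, was 353, with an exact 95% interval of 223 to 597 that covers counting error only. The fitted 95% interval, 8.13 to 8.74 on the log2 scale, is narrower than this, so the SE of the fit understates the error of this change. Without the first non-OSC library, which held 12 of the 18 non-OSC counts, the ratio was 676 (310.3 to 1842).

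Within the knockdown experiment, MMP10 moved apart under the hairpins. The shCtrl libraries had 86.5, 92.7 and 95.2 CPM of it. With shPDK1#1 the values were 108, 107 and 113 CPM, all above shCtrl. With shPDK1#2 they were 33.0, 31.8 and 34.6 CPM, all below shCtrl and about as tight as in the other groups. The log2 fold change against shCtrl was 0.26 (SE 0.0574, edgeR adjusted p = 0.00791) with shPDK1#1 and -1.47 (SE 0.0655, edgeR adjusted p = 9.05e-15) with shPDK1#2. The first of these was no longer past the threshold without the first shCtrl library (adjusted p = 0.0848) or the third shPDK1#1 library (adjusted p = 0.0755). In the direct contrast, shPDK1#2 was 1.73 below shPDK1#1 on the log2 scale (-1.73, SE 0.0642, edgeR adjusted p = 7.29e-16). Of the 14574 genes tested, 73 had a larger fall than MMP10 with shPDK1#2, and 1220 a larger rise with shPDK1#1. MMP10 shares 1.27% of its stretches of 75 bases with MMP3 and no exon overlaps another gene.

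MMP3, stromelysin 1 (chr11:102835801-102843609, minus strand), was almost silent throughout. It had 0, 8 and 5 counts in non-OSCs and 4, 5 and 11 in OSCs. The ratio of summed counts, scaled by library size, was 1.67 (exact 95% interval 0.792 to 3.66), so no difference was detectable at this depth. The shCtrl libraries had 6, 6 and 3 counts of MMP3, the shPDK1#1 libraries 2, 1 and 2, and the shPDK1#2 libraries 0, 1 and 0. The ratio to shCtrl was 0.314 (0.0893 to 0.909) with shPDK1#1 and 0.0598 (0.00142 to 0.389) with shPDK1#2. These intervals of MMP3 cover counting error only, not the spread between libraries. Counts were highest in shCtrl and lowest with shPDK1#2, but they were too few for the test across genes. MMP3 thus had at most 1.33 CPM in the OSC libraries, in which MMP10 reached 242 CPM.

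The collagenase MMP1 (ENSG00000196611, chr11:102789401-102798160, minus strand) was the most abundant member in every condition. The non-OSC libraries had 941, 969 and 951 CPM and the OSC libraries 3261, 3279 and 3320.5 CPM, with a narrow spread in both groups. Its log2 fold change in OSCs was 1.78 (SE 0.0332, edgeR adjusted p = 1.20e-20). The shCtrl libraries had 1715, 1695 and 1774 CPM, the shPDK1#1 libraries 2623, 2569 and 2606 CPM, and the shPDK1#2 libraries 1731, 1699 and 1743 CPM. MMP1 thus rose in all 3 shPDK1#1 libraries (log2 fold change 0.59, SE 0.0297, edgeR adjusted p = 5.51e-13). The shPDK1#2 values lay among those of shCtrl, with a log2 fold change of 0.00 and a 95% interval of -0.06 to 0.06 (edgeR adjusted p = 0.959). The contrast of the hairpins was -0.59 (SE 0.0297, edgeR adjusted p = 1.06e-13). On the opposite strand, exons of the pseudogene transcript WTAPP1 cover 8.14% of the MMP1 exons, and WTAPP1 itself had at most 3 counts in a library.

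Both gelatinases rose in OSCs, and with the hairpins MMP9 fell while MMP2 was not called. MMP2 (ENSG00000087245, chr16:55389700-55506691, plus strand) had 25.6, 31.6 and 28.0 CPM in non-OSCs and 149.9, 160.4 and 171 CPM in OSCs. The groups were far apart (log2 fold change 2.5, SE 0.0778, edgeR adjusted p = 5.45e-17). In the knockdown experiment MMP2 ranged from 108 to 116 CPM in shCtrl, from 96.5 to 116 CPM with shPDK1#1 and from 104 to 112 CPM with shPDK1#2. These ranges overlapped, and the fold changes against shCtrl were -0.06 (95% interval -0.18 to 0.05, edgeR adjusted p = 0.702) and -0.04 (-0.16 to 0.07, edgeR adjusted p = 0.642).

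MMP9 (ENSG00000100985, chr20:46008908-46016561, plus strand) had 24.9, 25.8 and 29.4 CPM in non-OSCs and 69.1, 73.0 and 68.9 CPM in OSCs, a log2 fold change of 1.40 (SE 0.0835, edgeR adjusted p = 3.00e-12). Its shCtrl values were 46.7, 49.9 and 48.6 CPM. The shPDK1#1 libraries had 28.7, 37.0 and 30.1 CPM and the shPDK1#2 libraries 23.2, 18.8 and 21.8 CPM. All libraries of both hairpins lay below all shCtrl libraries, and those of shPDK1#2 were the lowest. The log2 fold change was -0.60 (SE 0.0927, edgeR adjusted p = 0.000226) with shPDK1#1 and -1.18 (SE 0.0971, edgeR adjusted p = 6.36e-10) with shPDK1#2, and -0.59 (SE 0.101, edgeR adjusted p = 0.000137) between the hairpins. MMP9 is also used as a marker of osteoclasts. The summed level of CTSK, ACP5, DCSTAMP and OCSTAMP, the 4 osteoclast markers examined, was 1.65 to 2.7 CPM in non-OSCs and 7.79 to 9.18 CPM in OSCs. It was 4.6 to 6.83 CPM in shCtrl, 4.56 to 6.97 CPM with shPDK1#1 and 2.89 to 4.79 CPM with shPDK1#2. Most of it was CTSK, OCSTAMP was at 0 counts in all libraries, and ACP5 and DCSTAMP had at most 5 counts in a library. All libraries come from the same osteosarcoma line, and the culture methods name no osteoclasts. These marker levels are therefore read as RNA of that line, and their relation to MMP9 was not tested. Exons of SLC12A5-AS1 on the other strand cover 18.4% of the MMP9 exons, and that gene had 0 to 12 counts in a library.

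Both membrane-anchored enzymes rose in OSCs, and MMP14 also fell with shPDK1#2. MMP14 (ENSG00000157227, chr14:22836560-22849041, plus strand) had 601, 655 and 636 CPM in non-OSCs and 872, 913 and 944 CPM in OSCs, the smallest rise among the MMPs called (log2 fold change 0.53, SE 0.0424, edgeR adjusted p = 4.29e-10). Its shCtrl values were 982, 947 and 985 CPM, beside 902, 950.4 and 888 CPM in the shPDK1#1 and 623, 619.6 and 629 CPM in the shPDK1#2 libraries. The shPDK1#1 values overlapped those of shCtrl (log2 fold change -0.09, 95% interval -0.16 to -0.02, edgeR adjusted p = 0.197). All shPDK1#2 values lay below them (log2 fold change -0.64, SE 0.0347, edgeR adjusted p = 2.04e-13), and the hairpins differed by -0.55 (SE 0.0346, edgeR adjusted p = 8.18e-12). MMP16 (ENSG00000156103, chr8:88032011-88328025, minus strand) ranged from 35.8 to 41.3 CPM in non-OSCs and from 63.3 to 73.6 CPM in OSCs (log2 fold change 0.86, SE 0.0830, edgeR adjusted p = 9.23e-09). In the knockdown experiment its 9 libraries lay between 91.7 and 111 CPM with overlapping groups, and the fold changes against shCtrl were -0.01 (95% interval -0.13 to 0.12) with shPDK1#1 and 0.02 (-0.10 to 0.15) with shPDK1#2.

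The inhibitors did not move as a group. TIMP1 (ENSG00000102265, chrX:47582408-47586789, plus strand), a secreted inhibitor with growth-promoting activity, had 195, 217 and 217 CPM in non-OSCs and 419.8, 449 and 447 CPM in OSCs. It rose by 1.06 on the log2 scale (SE 0.0505, edgeR adjusted p = 6.17e-14). Its values were 395, 388 and 411 CPM in shCtrl, 481, 492 and 489 CPM in the shPDK1#1 libraries, and 399.98, 412 and 402 CPM in those of shPDK1#2. The shPDK1#1 libraries stood above all others (log2 fold change 0.29, SE 0.0369, edgeR adjusted p = 1.24e-05). The shPDK1#2 libraries overlapped shCtrl (0.03, 95% interval -0.05 to 0.10, edgeR adjusted p = 0.674), and the contrast between the hairpins was -0.27 (SE 0.0367, edgeR adjusted p = 5.74e-06).

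TIMP2 (ENSG00000035862, chr17:78852977-78925387, minus strand), which binds both MMP14 and the MMP2 precursor, had 53.8, 47.5 and 49.3 CPM in non-OSCs and 84.6, 81.0 and 86.4 CPM in OSCs (log2 fold change 0.74, SE 0.0709, edgeR adjusted p = 7.46e-09). It ranged from 68.1 to 70.6 CPM in shCtrl, from 65.9 to 69.6 CPM with shPDK1#1 and from 51.1 to 54.7 CPM with shPDK1#2. The first 2 groups overlapped (-0.03, 95% interval -0.15 to 0.09, edgeR adjusted p = 0.882), and shPDK1#2 was below both, by -0.40 against shCtrl (SE 0.0626, edgeR adjusted p = 2.33e-05) and by -0.36 against shPDK1#1 (SE 0.0624, edgeR adjusted p = 0.000123). Exons of CEP295NL and of ENSG00000267601 overlap 3.61% and 5.91% of the TIMP2 exons, with at most 2 and 9 counts in a library.

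TIMP3 (ENSG00000100234, chr22:32801705-32863041, plus strand), the inhibitor that stays bound to the matrix, was the member that fell in OSCs. It had 799.98, 832 and 795 CPM in non-OSCs and 469.7, 461 and 451 CPM in OSCs, without overlap (log2 fold change -0.81, SE 0.0397, edgeR adjusted p = 1.01e-13). It was lower with both hairpins, at 480.0, 472 and 482 CPM in the shPDK1#1 and 466, 451 and 469.5 CPM in the shPDK1#2 libraries, beside 545, 543 and 544 CPM in shCtrl. The log2 fold changes were -0.19 (SE 0.0350, edgeR adjusted p = 0.00213) and -0.24 (SE 0.0350, edgeR adjusted p = 9.85e-06). The hairpins were not told apart (-0.05, 95% interval -0.12 to 0.02, edgeR adjusted p = 0.393). TIMP3 and MMP9 were the members called lower than shCtrl with both hairpins.

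**Figure D2:**
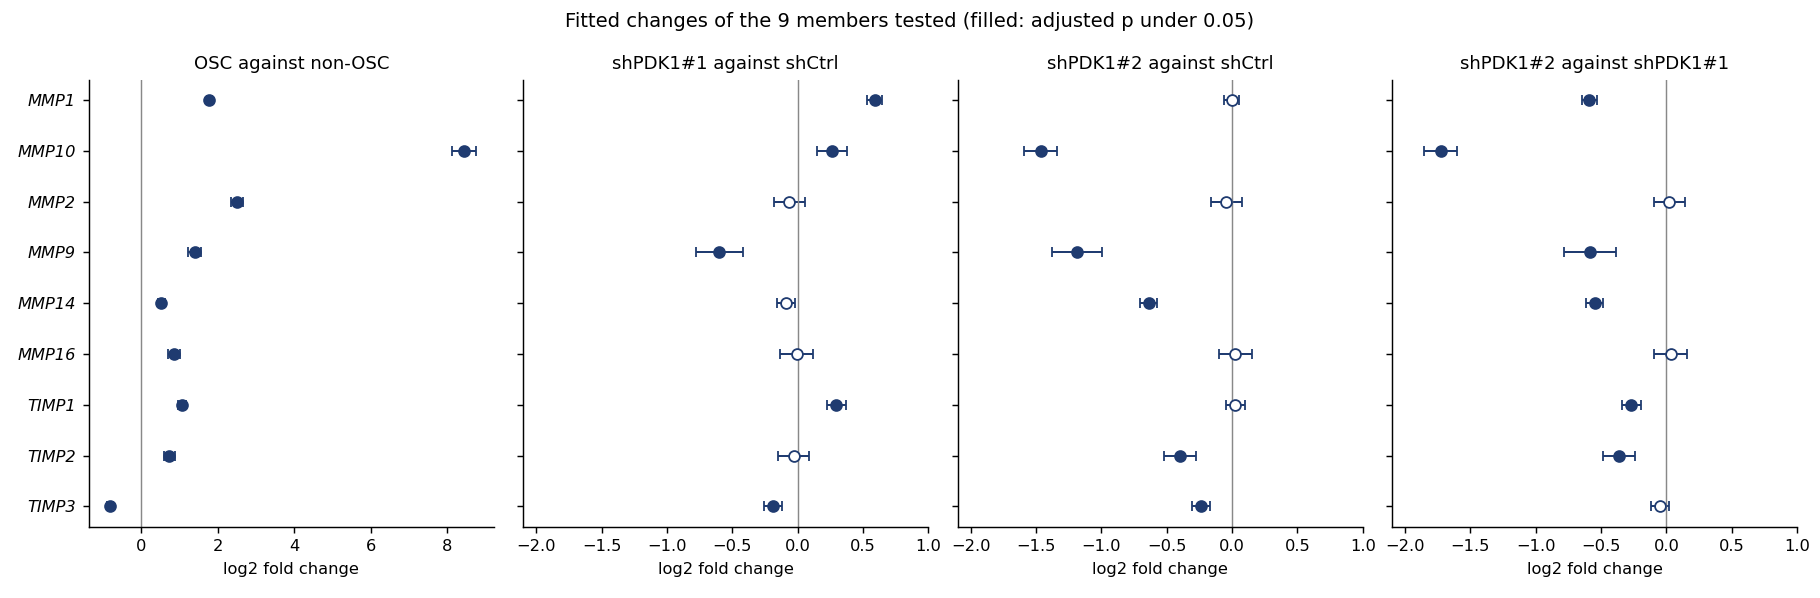
Fitted log2 fold changes of the 9 members tested in the 4 comparisons (points, with 95% intervals as bars; filled points have an adjusted p under 0.05); the axis of the first panel is wider than that of the others. MMP10 stands furthest out in 3 panels, at 8.44 in OSCs, -1.47 with shPDK1#2 and -1.73 between the hairpins, while in OSCs TIMP3 is alone on the left at -0.81. The bar of MMP10 in OSCs is narrower than its counting error.

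Between the hairpins, 6 of the 9 members tested were lower with shPDK1#2 than with shPDK1#1 and 0 were higher, beside 16.3% of all genes called (6.5% higher, 9.78% lower). The libraries of the hairpins did not overlap in 7 members, the 6 called and TIMP3, beside 30.7% of all genes. The 6 called were MMP1, MMP9, MMP10, MMP14, TIMP1 and TIMP2. For MMP1 and TIMP1, shPDK1#1 was the hairpin called against shCtrl, and it was higher. For MMP14 and TIMP2, shPDK1#2 was the hairpin called, and it was lower. MMP9 was lower with both, and MMP10 was called in opposite directions. The knockdown also differed in strength: PDK1 itself was lower with shPDK1#2 than with shPDK1#1 by -0.50 on the log2 scale (SE 0.0908, edgeR adjusted p = 0.00024). Whether strength of knockdown or other properties of the hairpins go with these differences was not tested.

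Levels of different genes were compared per kilobase of merged exon (CPM per kb). In non-OSCs the order was MMP1 at 348 CPM per kb, TIMP3 at 176, TIMP1 at 145, MMP14 at 136, MMP9 at 11.4, TIMP2 at 8.08, MMP2 at 6.03, MMP16 at 3.12, MMP10 at 0.344 and MMP3 at 0.256 CPM per kb. Neighbours whose libraries overlapped in this order were TIMP1 with MMP14 and MMP10 with MMP3. In OSCs, MMP1 stood at 1200.5 CPM per kb, followed by TIMP1 at 303, MMP14 at 197, MMP10 at 127 and TIMP3 at 100.2 CPM per kb. The stromelysin MMP10 thus went from the ninth to the fourth place, above TIMP3, and no 2 neighbours overlapped in OSCs. In shCtrl the first 5 were MMP1 at 631 CPM per kb, TIMP1 at 275, MMP14 at 210.1, TIMP3 at 118 and MMP10 at 52.0 CPM per kb. This order held with shPDK1#1, where MMP10 stood at 62.3 CPM per kb. With shPDK1#2, MMP10 at 18.8 CPM per kb stood behind MMP2 at 23.2 CPM per kb, and MMP9, MMP16 and TIMP2, at 9.10, 8.72 and 8.50 CPM per kb, followed with libraries that overlapped from one to the next.

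The summed MMP level per length was 506 ± 11.5 CPM per kb in non-OSCs and 1594 ± 10.3 CPM per kb in OSCs, while the summed TIMP level was 329 ± 11 and 417 ± 9.58 CPM per kb. The ratio of summed MMP to summed TIMP level was 1.53 to 1.56 in the 3 non-OSC libraries and 3.76 to 3.90 in the 3 OSC libraries. It was 2.34 in each shCtrl library, 2.76 to 2.80 with shPDK1#1 and 2.08 to 2.14 with shPDK1#2, with no overlap among the groups. These are levels of RNA and are given without a test. MMP1 made up 68.9 ± 0.639% of the summed MMP level in non-OSCs and 75.3 ± 0.208% in OSCs. MMP10 made up 0.0688 ± 0.0557% of it in non-OSCs, 7.95 ± 0.707% in OSCs, 5.49 ± 0.235% in shCtrl, 4.97 ± 0.143% with shPDK1#1 and 2.28 ± 0.0689% with shPDK1#2. The share of MMP14 was 27.0 ± 0.561% in non-OSCs and 12.3 ± 0.413% in OSCs. Among the inhibitors the leading gene changed, from TIMP3 with 53.5 ± 1.31% of the summed TIMP level in non-OSCs to TIMP1 with 72.7 ± 1.06% in OSCs. This change of order depends on the length used: per longest transcript TIMP1 led in both, with 50.2 ± 1.56% in non-OSCs and 76.5 ± 0.950% in OSCs.

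**Figure D3:**
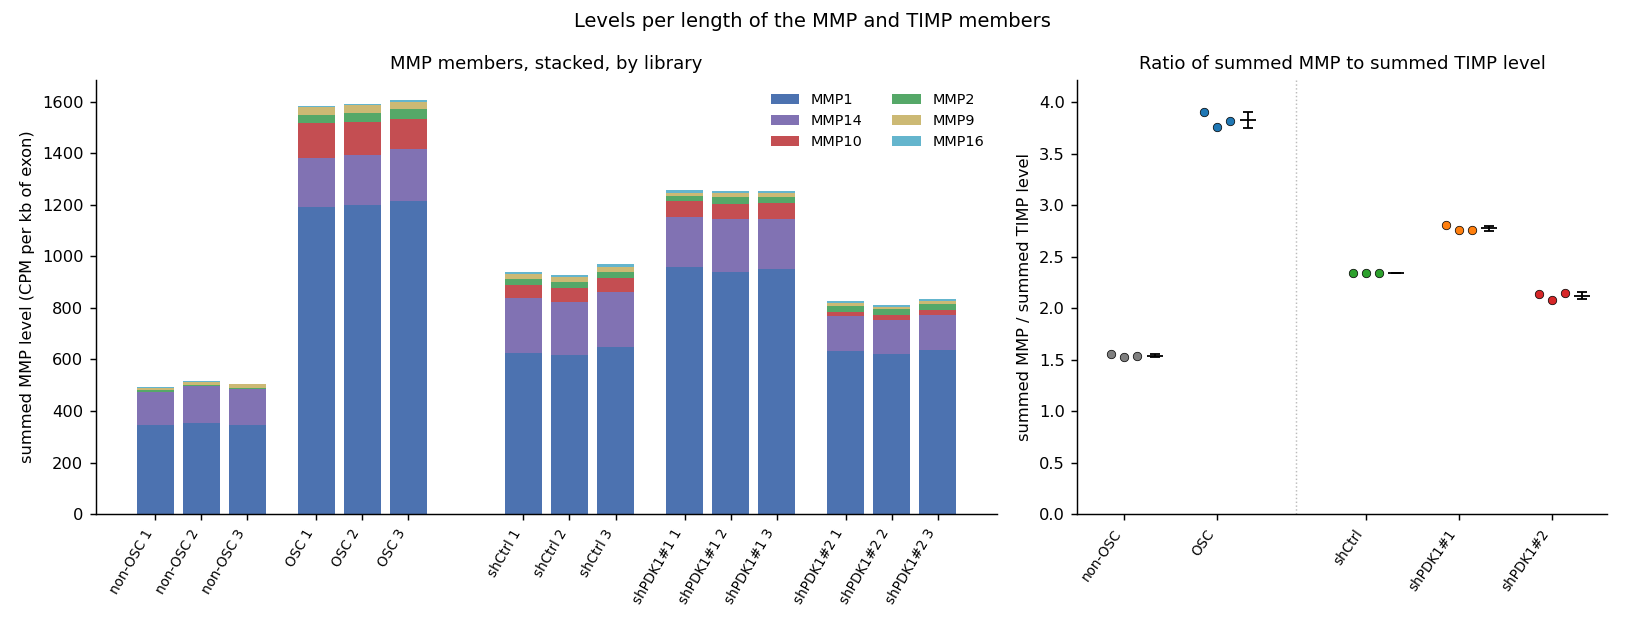
Left, levels of the MMP members per length, stacked in each library (CPM per kb of merged exon, from 0; MMP3 is too low to be drawn). Right, ratio of summed MMP to summed TIMP level in each library (points) with mean and SD (bars, n = 3). MMP1 forms most of every bar, the MMP10 band is visible in OSCs and narrow with shPDK1#2, and the ratio is near 3.82 in OSCs against 1.54 in non-OSCs.

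The tested genes around MMP10 had smaller changes than MMP10 itself in OSCs and with shPDK1#2. Apart from the members MMP1 and MMP3, 15 protein-coding genes lie within 1 Mb of MMP10, and 9 of them passed the filter on low counts. In OSCs 7 of these were called, 6 higher and DCUN1D5 lower (77.8%, beside 63.9% of all genes), with a median log2 fold change of 0.41. BIRC3, an inhibitor of apoptosis 431 kb away, had 6.63 ± 1.71 CPM in non-OSCs and 43.4 ± 1.29 CPM in OSCs (log2 fold change 2.69), and the collagenase MMP13, 162 kb away on the other side, rose from 2.83 ± 0.541 to 12.0 ± 2.34 CPM (2.09). YAP1, the co-activator of the Hippo pathway 537 kb away, rose by 0.56 and BIRC2 by 0.41 on the log2 scale. TMEM123 (0.07, adjusted p = 0.264) and CFAP300 did not pass the edgeR threshold. MMP7, MMP8, MMP12, MMP20, MMP27 and ANGPTL5 were too low to test. MMP7 had 0 to 1 counts in a non-OSC library and 4 to 8 in an OSC library, and MMP20 and MMP27 were at 0 in all 15 libraries.

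With shPDK1#2, 4 of the 9 neighbours tested were called, beside 26.2% of all genes. BIRC3 fell by 0.67 (adjusted p = 0.000917), YAP1 by 0.30 (adjusted p = 1.11e-06) and TMEM123 by 0.14 (adjusted p = 0.0247) on the log2 scale in edgeR, while MMP13 rose by 0.43 (adjusted p = 0.0174). MMP13 was the 1 neighbour of 9 called with shPDK1#1 (11.1%, beside 3.06% of all genes), where it rose by 0.54 (edgeR adjusted p = 0.0182). Of the collagenases MMP1 and MMP13, neither was called lower with a hairpin, whereas MMP10, which lies beside MMP1, fell with shPDK1#2.

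Beyond the 10 members, 17 further MMP and TIMP genes were examined, most of them too low to test. In OSCs 5 could be tested, and MMP13, MMP11 (log2 fold change 1.44) and MMP15 (0.95) were higher while MMP17 was lower (-0.76), so 80% were called, beside 63.9% of all genes. MMP11 is a stromelysin-like enzyme and MMP15 and MMP17 are membrane-anchored. With each hairpin 6 could be tested, and MMP13 alone was called (16.7%, beside 3.06% of all genes with shPDK1#1 and 26.2% with shPDK1#2).

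Genes that activate or restrain MMPs outside the TIMP family changed in both directions. Of the 19 genes of activation and pericellular proteolysis, 10 were higher and 7 lower in OSCs (89.5%, beside 63.9% of all genes), with a median log2 fold change of 0.14. The general protease inhibitor A2M went from 1.81 to 26.7 CPM (log2 fold change 3.86), its clearance receptor LRP1 rose by 1.58, the proprotein convertase PCSK5 by 1.03 and the collagen-degrading cathepsin CTSK by 2.14 on the log2 scale. The plasminogen activator PLAU went the other way, with 519 CPM in non-OSCs and 79.5 CPM in OSCs (-2.71), as did the matrix-bound inhibitor TFPI2 (-1.01). The shPDK1#1 libraries differed from shCtrl in 2 of the 19 (1 higher, 1 lower), beside 3.06% of all genes. With shPDK1#2, 4 were higher and 7 lower (57.9%, beside 26.2% of all genes). A2M rose by 1.42, while PLAU (-0.86) and TFPI2 (-0.57) fell. PLAU and TFPI2 were therefore lower in OSCs than in non-OSCs and lower again with shPDK1#2.

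The related ADAM and ADAMTS metalloproteinases, which shed membrane proteins and cut proteoglycans, were called higher in 13 and lower in 6 of 24 tested in OSCs (median log2 fold change 0.37). These are 79.2% of those tested, beside 63.9% of all genes. ADAMTS1, a secreted proteoglycan-cutting enzyme, went from 7.86 to 65.1 CPM (log2 fold change 3.05), ADAM12 from 9.77 to 55 CPM (2.49) and ADAM8 from 33.0 to 85.8 CPM (1.38). The lower-expressed ADAMTS9 rose as well (1.22), and ADAMTS6 fell (-1.49). ADAMTS5 had 3 to 5 counts in a non-OSC library and 13 to 21 in an OSC library, so it passed the filter on low counts through OSCs, and its log2 fold change of 2.20 had a wide 95% interval, 1.24 to 3.16. The shPDK1#1 libraries had 2 of 22 lower and 0 higher, beside 3.06% of all genes called. The shPDK1#2 libraries had 5 lower and 1 higher, 27.3% of the 22, which is near the 26.2% of all genes. ADAMTS1 fell with both, by 0.50 with shPDK1#1 and by 1.42 with shPDK1#2 on the log2 scale, from 62.2 CPM in shCtrl to 44 and 23.3 CPM. ADAMTS6 fell by 1.66 with shPDK1#2 while ADAMTS9 rose by 0.58.

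AP-1 and ETS factors are known to bind MMP promoters, and their genes were examined beside the members. Of 12 genes, 9 were higher and 2 lower in OSCs (91.7%, beside 63.9% of all genes), with a median log2 fold change of 1.09. FOSB went from 1.6 to 48.3 CPM (log2 fold change 4.92), FOS from 6.11 to 74.7 CPM (3.61), JUND from 19.9 to 204 CPM (3.36) and JUNB from 41.9 to 199 CPM (2.25), and the ETS factors ETS2 (1.83) and ETV1 (1.11) rose too. The 2 lower genes were FOSL1, which went from 695 to 368 CPM (-0.92) and was the most abundant FOS-family gene by CPM per kb in both groups, and ETS1 (-0.20). With shPDK1#2, 8 were lower and 1 higher (75%, beside 26.2% of all genes). FOSB fell by 1.53, FOS by 1.3, JUND by 1.12, JUNB by 0.84 and ETS2 by 0.63 on the log2 scale, whereas ETV1 did not pass the threshold (-0.12). With shPDK1#1, 4 were lower, among them FOSB (-0.44), FOS (-0.33) and JUND (-0.30), and 0 were higher, beside 3.06% of all genes called. MMP10 and MMP1 rose with shPDK1#1 in the same libraries in which these AP-1 genes fell. Whether the levels of the factors bear on those of the members was not tested.

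**Figure D4:**
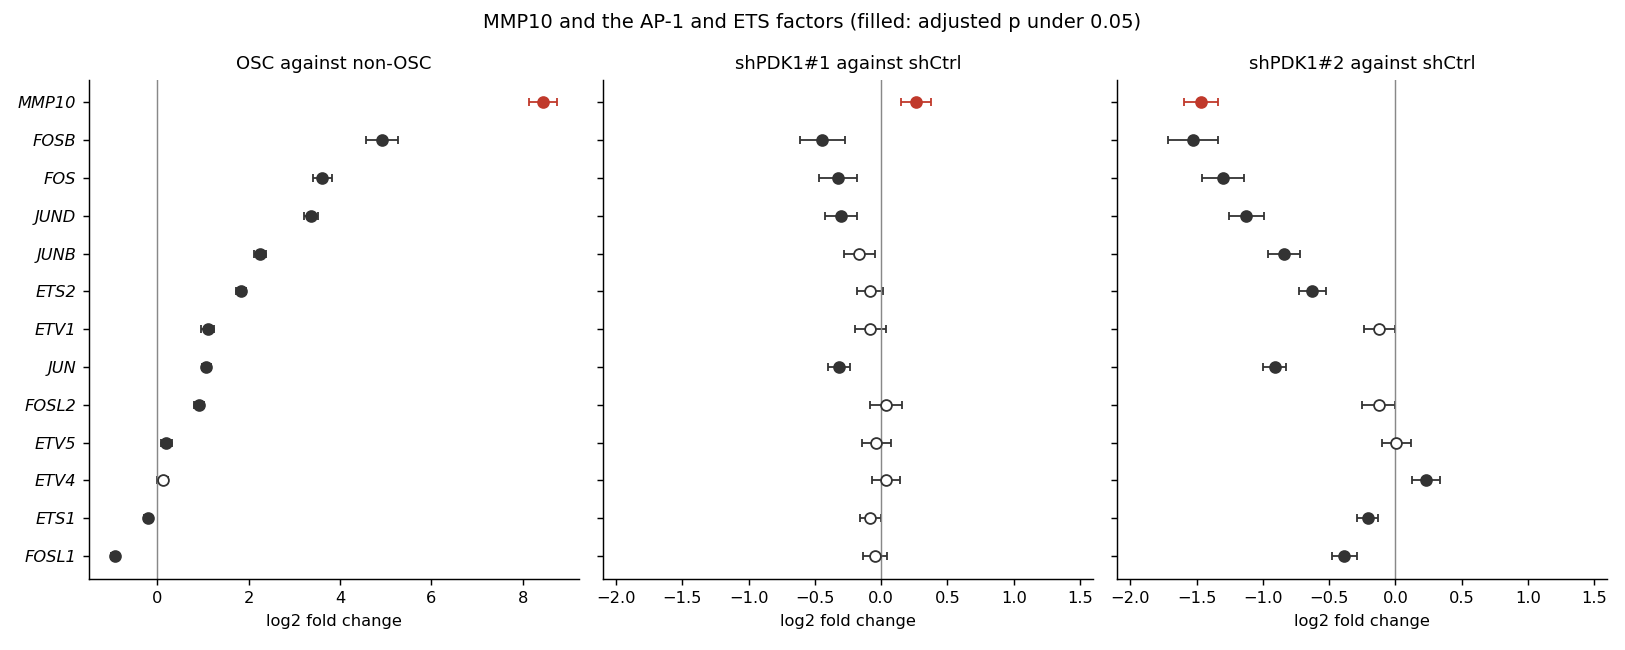
Log2 fold changes (points, 95% intervals as bars, filled where the adjusted p is under 0.05) of MMP10, in red, and of the 12 AP-1 and ETS genes, in black and ordered by their change in OSCs, in 3 comparisons; the axis of the first panel is wider. FOSB, FOS and JUND lie at 4.92, 3.61 and 3.36 in OSCs and at -1.53, -1.3 and -1.12 with shPDK1#2, and with shPDK1#1 they lie left of 0 while MMP10 lies at 0.26. The bar of MMP10 in OSCs is narrower than its counting error.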

How the data were processed

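Total RNA of 15 libraries was sequenced as paired reads on an Illumina NovaSeq instrument. Per the submitters' processing notes, the authors used Trimmomatic 0.39 for trimming, FastQC 0.12.1 for quality, STAR 2.7.11a for alignment (GRCh38.p14) and RSEM 1.3.3 for quantification. They deposited expected counts per gene, not normalized between libraries, in 1 table per experiment. The annotation and the use of strand in counting are not given in the sources used here, so reads of overlapping genes on opposite strands may not be separated. Columns of the first table are named for 2D and 3D culture and were matched to non-OSCs and OSCs by those names.

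Expected counts were rounded (6.85% and 6.92% of the values were not whole). Each table was fitted once with edgeR 4.0.16 in R 4.3.3 (TMM, filterByExpr by condition, quasi-likelihood test; 9 libraries in 1 fit for the hairpins), and Benjamini-Hochberg adjusted p-values under 0.05 were called. Fold changes are first against second group. Intervals are 95%. Ratios of low counts have exact conditional intervals, and 3 counts per library was taken as the floor. GENCODE 44 gave symbols, GRCh38 positions, merged exon lengths, overlaps and shared stretches of 75 bases. Between replicates the chi-square over genes was 1.96 to 3.56 per degree of freedom, above the 1 that sampling noise alone would give.

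The members and lists were chosen with earlier results of these data known. Named were all members, up to 6 called genes per list by size of change (mean of at least 1 CPM), the protein-coding genes within 1 Mb of MMP10, the 5 genes most like MMP10, and PDK1. The fit was tested on simulated counts, in which 159 of 200 genes changed by 2 times were recovered for OSCs, 170 of 200 for shPDK1#2 against shCtrl and 169 of 200 for shPDK1#2 against shPDK1#1, and 10, 10 and 20 unchanged genes were called. The 20 beside 169 recovered exceed the share of 0.05 aimed at. For OSCs, 200 of 14089 genes were changed, with dispersions from these data, whereas 63.9% were called in the real comparison. For the hairpins, 200 of 14391 genes were changed, whereas 26.2% were called for shPDK1#2 against shCtrl and 16.3% between the hairpins. The simulation thus cannot vouch for changes as broad as these. Alternatives were library size alone, DESeq2 1.42.0, no filter, a minimum of 10 counts per library, a replicate block, the compared groups alone, each library left out and, for levels, the longest transcript. Columns of values left unmapped numbered 0.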

Additional observations from a re-analysis of the deposited data

Results flagged for a closer look

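The effects of the 2 hairpins differed, by the direct contrast of shPDK1#2 against shPDK1#1, for 6 of the 9 members tested. MMP10 had the widest gap, at -1.73 on the log2 scale. MMP1 and MMP9 each differed by -0.59 and MMP14 by -0.55. The inhibitors TIMP2 and TIMP1 differed by -0.36 and -0.27. In each of the 6, all 3 shPDK1#2 libraries lay below all 3 shPDK1#1 libraries (30.7% of all genes tested did not overlap, in either direction), and the adjusted p of edgeR's quasi-likelihood test ran from 7.29e-16 for MMP10 to 0.000137 for MMP9.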

How the results depend on the processing

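The members called in each comparison numbered 7 to 8 higher and 1 lower in OSCs, 2 to 3 higher and 2 to 3 lower with shPDK1#1, and 0 higher and 5 lower with shPDK1#2 under every alternative run, and 6 lower and 0 higher between the hairpins. With at least 10 counts in every library, MMP10 could not be tested in OSCs. Of 503 fold changes of members under alternatives, 491 kept direction and side of the threshold. Of the rest, 2 lost the call (MMP10 with shPDK1#1, above) and 1 gained it (MMP14 with shPDK1#1, without shPDK1#1 replicate 2). The other 9, all of values near 0 that were not called, changed sign. With a library left out, these ran from -0.12 to 0.0019 (MMP2, turned without shPDK1#1 replicate 1) and from -0.072 to 0.072 (MMP16, turned without shCtrl replicate 1 at 0.023 and without shPDK1#1 replicate 2) for shPDK1#1, from -0.017 to 0.016 (MMP1, turned without shCtrl replicate 3 and, at 0.0087, without shPDK1#2 replicate 2) and from -0.0071 to 0.066 (MMP16, turned without shPDK1#2 replicate 1) for shPDK1#2, and from -0.047 to 0.077 (MMP2, turned without shPDK1#1 replicate 1) and from -0.049 to 0.097 (MMP16, turned without shPDK1#1 replicate 2) between the hairpins. With at least 10 counts in every library, MMP1 with shPDK1#2 was at 0.00087. Genes called in the other lists with shPDK1#1 numbered 9, and 5 to 9 with a library left out (5 without shPDK1#1 replicate 3). Among all genes, 446 were called with shPDK1#1, and 245 (without shPDK1#1 replicate 3) to 579 (no filter on low counts) under the alternatives. MMP10's log2 fold change in OSCs ran from 8.15 to 9.34 with a library left out.

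Deviations of replicates of the same number were weakly correlated (from -0.0093 to 0.0730 in the first table and from -0.0539 to 0.0948 in the second). This cannot show whether the cultures were paired, and the labels do not say, so a replicate block was run as an alternative only. With the block, the members called were 8 higher and 1 lower, 3 and 2, 0 and 5, and 0 and 6 in the comparisons above, as without it, and the other lists had 53, 9, 27 and 27 genes called. Among all genes, calls rose with the block to 9420, 507, 3943 and 2522, from 9126, 446, 3812 and 2374, in the same order of comparisons.

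Per longest transcript in place of merged exons, MMP1 made up 72.1% (non-OSCs), 78.9% (OSCs), 70.5% (shCtrl), 78.9% (shPDK1#1) and 79.2% (shPDK1#2) of the summed MMP level, and the MMP to TIMP ratio was 1.76, 4.04, 2.48, 2.94 and 2.28, in the same order of groups. Depth limits MMP3, MMP10 in non-OSCs and 11 or 12 of the 17 further MMP and TIMP genes, which were too low to test.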

Other observations

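The 5 genes whose log2 CPM, centred within each experiment, ran most alike to that of MMP10 over the 15 libraries were MLLT11 (Pearson r = 0.997), STC1 (0.995), ITGAV (0.995), ARG2 (0.994) and DCBLD2 (0.993), among 14046 genes tested in both experiments. The libraries share their conditions, and the gap between OSCs and non-OSCs sets most of each value, so the values are a description. STC1, which encodes the secreted glycoprotein stanniocalcin 1, had 60.4 ± 3.30 CPM in non-OSCs and 702 ± 27.5 CPM in OSCs (n = 3). In the knockdown experiment it had 269.5 ± 2.0 CPM in shCtrl, 313 ± 3.45 CPM in shPDK1#1 libraries and 183 ± 9.14 CPM in shPDK1#2 libraries. It was thus called higher with shPDK1#1 (log2 fold change 0.21) and lower with shPDK1#2 (-0.56), as MMP10 was. STC1 was picked for its likeness to MMP10 over these same libraries, so the shared pattern is partly set by that choice and is a description. The other 4 were not called with shPDK1#1, at log2 fold changes of -0.03 (MLLT11), 0.06 (ITGAV), 0.05 (ARG2) and -0.10 (DCBLD2). ITGAV, the integrin chain of vitronectin receptors, had 139 CPM in non-OSCs and 438 CPM in OSCs, and fell by 0.24 with shPDK1#2. The mitochondrial arginase ARG2 rose by 2.26 in OSCs and fell by 0.44 with shPDK1#2 on the log2 scale. Of the members, MMP2 (r = 0.957), MMP1 (0.953) and TIMP1 (0.945) stood closest to MMP10 by this measure, and TIMP3 had the opposite sign (-0.890).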
